A study of Caenorhabditis elegans with 2 samples.

Results

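The HSP70, HSP90 and chaperonin genes examined here are 8 genes of *Caenorhabditis elegans*, hsp-90 (also called daf-21), hsp-1, hsp-3, hsp-4, hsp-70, hsp-110, hsp-6 and hsp-60, of 19985 protein-coding genes in the annotation. They were chosen by name, with earlier results of these data in view, and the measure is the set of UNC-62 regions at their promoters. UNC-62, the worm relative of Meis and Homothorax, is a DNA-binding homeodomain protein that acts with PBX-type partners. Its binding was measured by ChIP-seq, in which DNA bound by a precipitated protein is sequenced, in 2 biological replicates of a single group of L4 larvae.

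Both replicates are strain OP600, which carries unc119(ed3) and the integrated transgene wgIs600 (unc-62::TY1 EGFP FLAG; unc119). In these worms the transgene gives a UNC-62 with a tag at its C terminus. Male and female animals were pooled, per the labels, and chromatin was broken by sonication. The antibody label reads unc-62, and whether it recognised the protein or the tag is not stated. No untagged strain, other stage or treatment was analysed here, so the results below are levels and positions in 1 group, with no test between groups. Since whole animals were used, tissues cannot be told apart, and region lists hold no expression values with which to check the labelled stage.

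Chaperones help other proteins fold and keep them from aggregating. HSP70 proteins bind and release unfolded stretches in cycles of ATP hydrolysis, HSP90 acts late on nearly folded client proteins such as kinases and receptors, and chaperonins enclose a folding chain in a chamber. Each compartment has its own set: the cytosol has hsp-1, hsp-70, hsp-110 and hsp-90, the endoplasmic reticulum has the BiP genes hsp-3 and hsp-4, and the mitochondrial matrix has hsp-6 and hsp-60. In animals, heat shock factor binds inverted repeats of the letters GAA at heat shock genes, and the unfolded protein response of the endoplasmic reticulum acts through factors of the XBP-1 and ATF-6 type.

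The values come from 4 lists of regions that the authors deposited on build ce11. The thresholded list held 197 regions kept by the irreproducible discovery rate (IDR) step, and the pooled list held 4849 regions called on both replicates together. The lists of replicate 1 and replicate 2 held 18114 and 20477 regions. The last 3 are unthresholded and contain background, so the presence of a region in them does not by itself show binding. Regions were ranked within each list by the authors' signal value, 1 being the highest, and the thresholded regions were the 197 highest of the pooled list. Each region also has the authors' q-value, and 352 pooled, 1521 replicate 1 and 604 replicate 2 regions had a q-value of 0.05 or less. Signal is on a scale that differs between lists, and the depth behind it is unknown.

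A gene was given a promoter region where a summit lay between 1000 bp upstream and 500 bp downstream of the start of one of its protein-coding transcripts in WBcel235 (Ensembl release 115). Many worm transcripts are trans-spliced, so an annotated start need not be where transcription begins. Of the 8 genes, 3 had a thresholded region, namely hsp-90, hsp-1 and hsp-3, against 0.5% of all protein-coding genes (100 of 19985). The genes were chosen with this count known, so it is a description and nothing is inferred from it. In the pooled list 4 genes had a region, those 3 and hsp-60, against 11.1% of all genes. With the q-value at 0.05 or less, the pooled list again gave 3, against 0.996% of all genes.

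**Figure D1:**
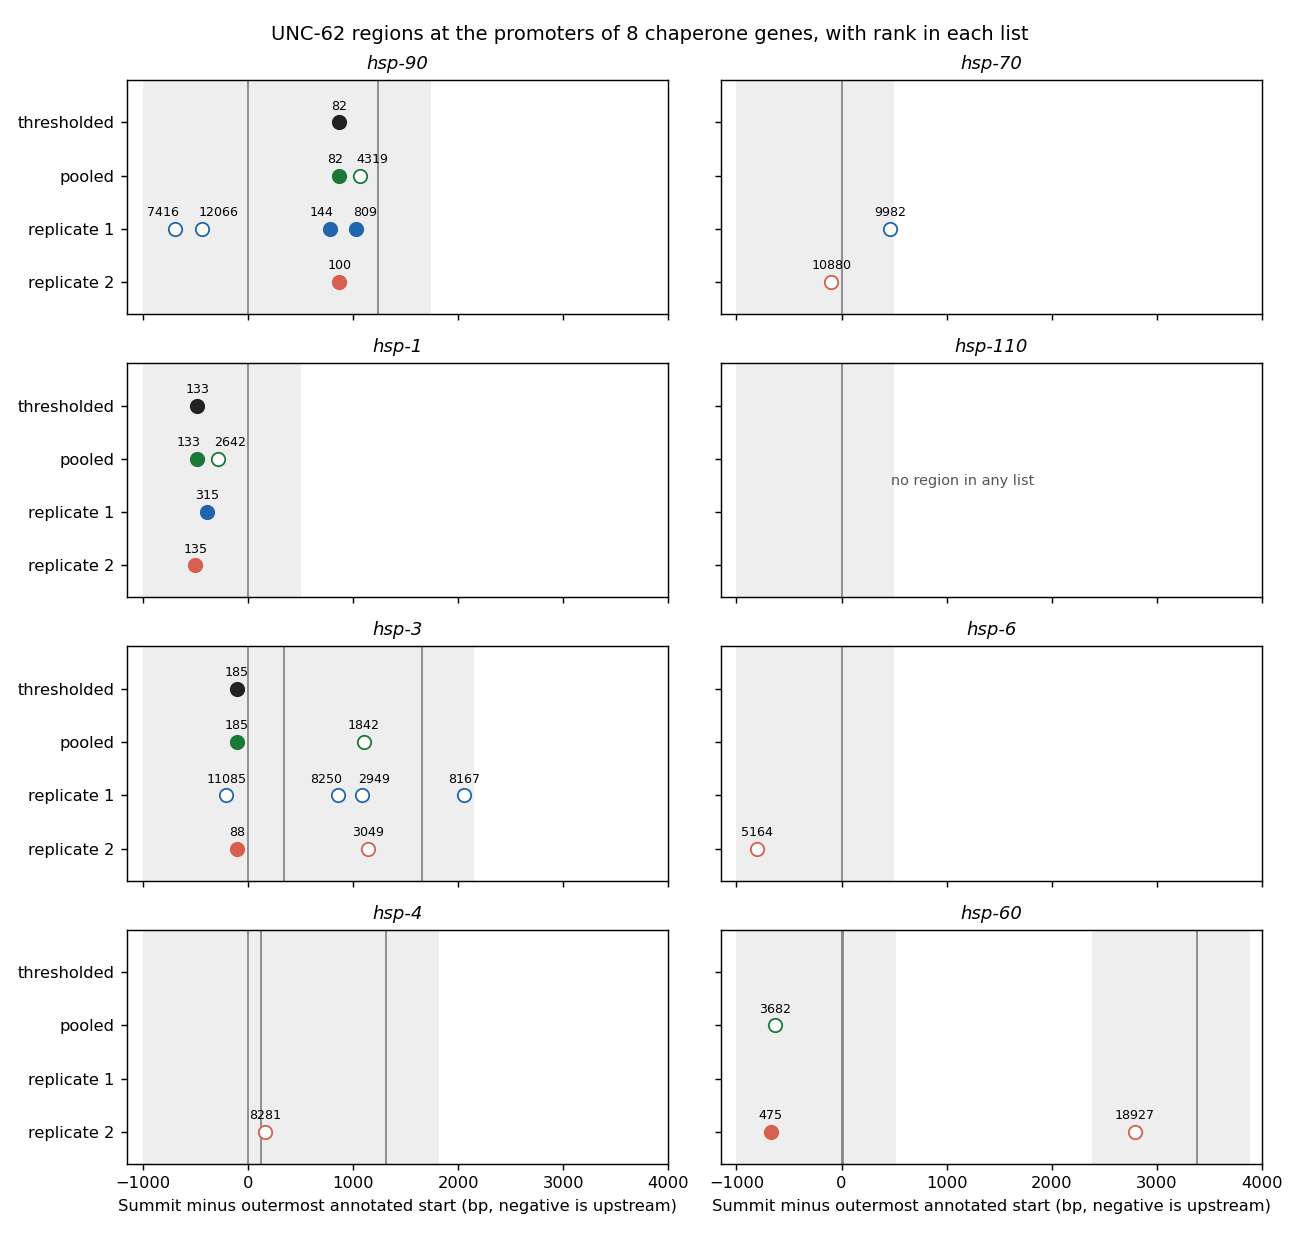
Regions at the promoters of the 8 chaperone genes, with 1 panel per gene and 1 row per list. The horizontal axis is the distance in bp of a summit from the outermost annotated start, grey lines are all annotated starts, grey bands are the promoter windows, numbers are ranks, and filled circles have a q-value of 0.05 or less. Filled circles lie close together in all 4 lists at hsp-90 and hsp-1, miss replicate 1 at hsp-3, and occur only in replicate 2 at hsp-60.

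The DNA under these summits is shown for the 3 genes with a thresholded region and for hsp-60. The same stretch upstream of hsp-4 is added because hsp-4 is the second BiP gene, and it had no thresholded region. Each window is the 201 bp centred on the summit, or for hsp-4 on the point 108 bp upstream of its outermost start, where the summit of hsp-3 lies relative to its own. All are written 5′ to 3′ on the strand of the gene, from the RefSeq copy of WBcel235. Capitals mark 6 words on either strand. These are the Meis-type word TGACA, the TGACGTG bound by bZIP proteins, the GATA-factor word GATAA, the CCAAT box, and the heat shock repeats GAANNTTC and TTCNNGAA. No window holds annotated UTR sequence, and each occurs once in the genome.

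hsp-90, chrV:14685686-14685886, plus strand: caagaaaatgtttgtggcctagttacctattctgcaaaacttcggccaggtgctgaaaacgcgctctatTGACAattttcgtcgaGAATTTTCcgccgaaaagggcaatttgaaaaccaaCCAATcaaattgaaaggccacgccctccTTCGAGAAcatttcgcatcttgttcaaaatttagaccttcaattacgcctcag

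hsp-1, chrIV:17278375-17278575, plus strand: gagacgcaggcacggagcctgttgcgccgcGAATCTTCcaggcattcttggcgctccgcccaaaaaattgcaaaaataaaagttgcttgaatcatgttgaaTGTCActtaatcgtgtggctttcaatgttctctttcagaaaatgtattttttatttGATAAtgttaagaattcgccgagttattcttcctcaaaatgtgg

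hsp-3, chrX:6092132-6092332, minus strand: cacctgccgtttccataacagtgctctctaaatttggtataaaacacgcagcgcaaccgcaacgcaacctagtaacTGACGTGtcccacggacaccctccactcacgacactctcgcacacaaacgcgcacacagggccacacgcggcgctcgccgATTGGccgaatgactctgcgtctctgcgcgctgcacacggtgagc

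hsp-60, chrIII:1619009-1619209, plus strand: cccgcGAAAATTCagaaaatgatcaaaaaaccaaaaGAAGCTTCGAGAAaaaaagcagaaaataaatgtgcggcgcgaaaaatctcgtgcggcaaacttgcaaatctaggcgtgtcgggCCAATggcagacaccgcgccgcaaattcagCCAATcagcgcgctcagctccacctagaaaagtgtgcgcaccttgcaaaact

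hsp-4, chrII:7352653-7352853, minus strand: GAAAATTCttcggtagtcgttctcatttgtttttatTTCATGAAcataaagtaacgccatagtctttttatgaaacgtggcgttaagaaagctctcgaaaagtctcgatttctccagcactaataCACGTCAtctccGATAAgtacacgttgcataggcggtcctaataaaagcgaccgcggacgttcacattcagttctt

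None of the 5 windows held TGACAG, the longer Meis-type word, which holds TGACA within it and was present in 26.7% of the 176 nuclear thresholded regions, 9.61% of the 4828 nuclear pooled regions and 6.57% of promoter windows of the same length. These promoter windows ran from 250 to 50 bp upstream of the outermost start of 19973 protein-coding genes. The shorter word TGACA lay once in the hsp-90 window, 29 bp upstream of the summit, and once in the hsp-1 window, with its middle 3 bp downstream of the summit. That word was in 64.2% of thresholded regions, 39.9% of pooled regions and 33.3% of promoter windows, so its presence is common. The windows of hsp-3, hsp-60 and hsp-4 lacked it. The word GATAA was in the hsp-1 and hsp-4 windows, against 65.9% of thresholded regions, 46.9% of pooled regions and 44.3% of promoter windows.

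Heat shock repeats lay in 4 of the 5 windows and were absent from that of hsp-3. GAANNTTC occurred once at hsp-90, once at hsp-1 and at 2 places at hsp-60, and TTCNNGAA occurred once at hsp-90 and once at hsp-60, where it overlaps a copy of GAANNTTC. The hsp-4 window held 1 copy of each. GAANNTTC was in 6.25% of nuclear thresholded regions, 12.5% of pooled regions and 12.7% of promoter windows. TTCNNGAA was in 6.25% of thresholded regions and 12% of pooled regions. The middle of the nearest repeat lay 12 bp upstream of the summit at hsp-90 and 67 bp upstream at hsp-1.

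The word TGACGTG was in the windows of both BiP genes. It occurred once at hsp-3, centred 21 bp upstream of the summit. At hsp-4 it occurred once on the other strand, centred 28 bp downstream of the middle of the window. That window was placed by distance and held no pooled summit. TGACGTG was in 3.98% of nuclear thresholded regions, 2.15% of pooled regions and 1.97% of promoter windows, and in none of the windows of hsp-90, hsp-1 and hsp-60. CCAAT was in the windows of hsp-90, hsp-3 and hsp-60, against 30.1% of thresholded regions and 32.7% of promoter windows. The hsp-3 window had a GC content of 58.7%, the highest of the 5, against 42.8% at hsp-90, 40.8% at hsp-1, 48.3% at hsp-60 and 40.3% at hsp-4. The median was 39.8% over nuclear thresholded regions and 33.8% over promoter windows. Of 5 further words searched, CCACG was in the windows of hsp-90, hsp-3 and hsp-4, against 17% of thresholded regions and 14.8% of promoter windows. TATAAA was in the hsp-3 window, against 19.3% of thresholded regions and 25.7% of promoter windows. GGGCGG was in the hsp-1 window, against 11.4% of thresholded regions and 5.59% of promoter windows. CACGTG was in none, against 11.4% of thresholded regions and 3.98% of promoter windows, and GAGAGAG was in none, against 14.8% and 5.07%. A word match is a description of these letters and not a site.

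Among the cytosolic genes, hsp-90 had the highest region of the 8 genes in the thresholded list. It encodes the cytosolic HSP90, and lies on chromosome V from 14684918 to 14688545 on the plus strand. Its region (V, 14685578 to 14685993) had a signal of 27.7 and ranked 82, with a q-value of 0.0381. The summit was 374 bp upstream of the start at 14686160. A longer transcript of the Ensembl annotation starts at 14684918, inside the neighbouring gene, and relative to it the summit is 868 bp downstream and lies in an intron. RefSeq has only the start at 14686160.

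Both replicates ranked the hsp-90 region high. In replicate 1 the best region ranked 144 with a signal of 10.3 and a q-value of 0.0022, and in replicate 2 it ranked 100 with a signal of 16.7 and a q-value of 0.0131. The summits were 459 and 374 bp upstream of the start, 85 bp apart. Replicate 1 listed a second region nearer to the start (209 bp upstream, rank 809, q-value 0.0229), and the pooled list a second one at 175 bp (rank 4319, q-value 0.945). Further replicate 1 regions lay upstream of the longer transcript, within C47E8.4, at ranks 7416 and 12066.

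The hsp-90 promoter is divergent. C47E8.4, annotated by RefSeq as a FAM50 homolog, is transcribed away from it on the minus strand, and its window holds the same summit. C47E8.4 also has several annotated starts. The thresholded summit was 301 bp upstream of the nearest of these, and so nearer to it than to hsp-90. That summit is farther from another C47E8.4 start, 243 bp from the outermost hsp-90 start, than from the nearest hsp-90 start. In replicate 1 the best summit was 216 bp from the nearest C47E8.4 start. The deposited regions do not tell which of the 2 genes the region belongs to. With regions given only to the nearest protein-coding start, or with the outermost start of each gene alone, hsp-90 had no thresholded region and 2 of the 8 genes, hsp-1 and hsp-3, kept theirs.

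The hsp-1 gene (IV, 17278959 to 17281330, plus strand) encodes the constitutive cytosolic HSP70. Its thresholded region (IV, 17278267 to 17278682) had a signal of 23.3 and ranked 133. The summit was 484 bp upstream of the only annotated start, and no other protein-coding gene had its window there. It fell in F26D10.23, a short annotated non-coding RNA gene.

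Replicate 1 ranked the hsp-1 region lower than replicate 2 did, and both gave it a q-value under 0.05. Replicate 1 had rank 315, a signal of 7.98, a q-value of 0.0143 and a summit 391 bp upstream. Replicate 2 had rank 135, a signal of 15.1, a q-value of 0.0131 and a summit 502 bp upstream, 111 bp from that of replicate 1. Neither list held another region in the window, and the pooled list held a second one at rank 2642 (284 bp upstream, q-value 0.795).

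The other cytosolic members had little or nothing. hsp-70, a heat-inducible cytosolic HSP70 gene on chromosome I, lies within an intron of uggt-2 on the opposite strand. Its window held a replicate 1 region 460 bp downstream of the start at rank 9982 (q-value 0.475) and a replicate 2 region 98 bp upstream at rank 10880 (q-value 0.805). These 2 summits were at different places, and no pooled region lay closer than 13184 bp. hsp-110 (III, 8443910 to 8446909, minus strand), whose product is a nucleotide exchange factor for HSP70, was the only one of the 8 with no region in its window in any of the 4 lists. Its nearest pooled summit was 10641 bp from the start. A replicate 1 region at rank 2663 lay in a coding exon, 2286 bp downstream of the start, with a q-value of 0.113.

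The BiP pair differed in the lists. BiP is the HSP70 of the endoplasmic reticulum, and *C. elegans* has hsp-3 on chromosome X (6089028 to 6092124, minus strand) and hsp-4 on chromosome II (7350112 to 7352645, minus strand). The second is known as a strongly induced target of the unfolded protein response. The thresholded region at hsp-3 (X, 6092024 to 6092439) had a signal of 20.96 and ranked 185 of 197, close to the end of the list. The last thresholded region had a signal of 20.6087 and the next pooled region 20.5877. The summit was intergenic, 108 bp upstream of the outermost start and 447 bp upstream of the start at 6091785.

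The replicates ranked the hsp-3 region far apart. Replicate 2 ranked the region 88, with a signal of 17.8, a q-value of 0.0131 and its summit at the same base as the pooled one. The overlapping region of replicate 1 ranked 11085, with a signal of 2.73, a q-value of 0.53 and a summit 100 bp away. That replicate 1 summit also lay in the window of C15H9.5, 968 bp from its start and farther from it than from hsp-3. The best replicate 1 region in the hsp-3 window was a different one, in an intron 567 bp upstream of an internal start (rank 2949, q-value 0.117). Nearby intronic regions were listed at 553 bp in the pooled list (rank 1842, q-value 0.599) and at 510 bp in replicate 2 (rank 3049, q-value 0.375).

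Regions around hsp-3 were also listed beyond its window. Replicate 2 ranked a region 411 at 189 bp past the 3′ end of the gene, with a q-value of 0.0256, and the pooled list had it at rank 1088. Replicate 2 had another at rank 653, 1466 bp upstream and inside C15H9.5, with a q-value of 0.0605. At hsp-4 the lists held 1 promoter region, in replicate 2, at rank 8281 with a signal of 4.38 and a q-value of 0.679. It lay 33 bp downstream of a start, in the annotated 5′ UTR. The nearest pooled summit to hsp-4 was 13849 bp away.

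**Figure D2:**
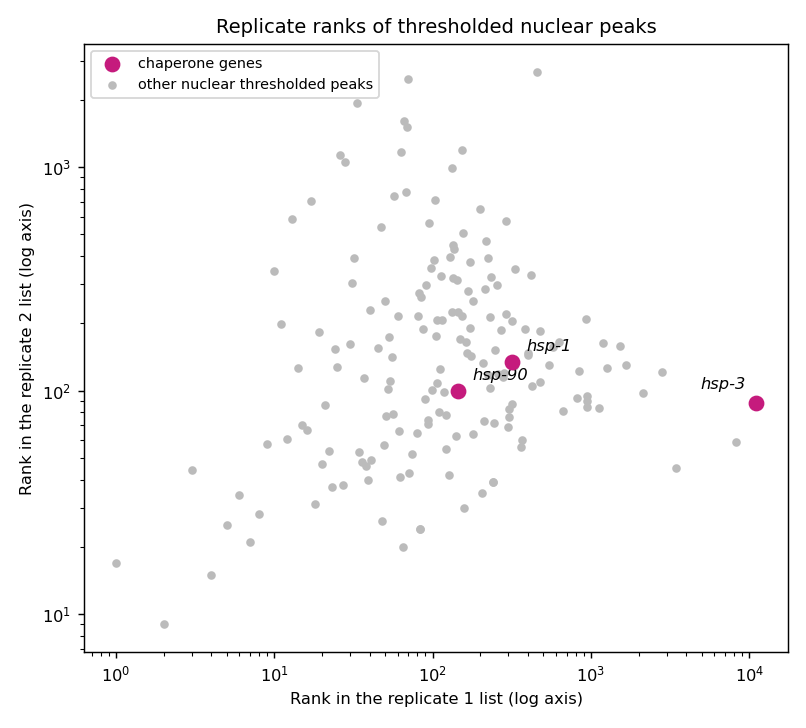
Rank in replicate 1 (horizontal, log axis) against rank in replicate 2 (vertical, log axis) for the 172 nuclear thresholded peaks with an overlapping region in both lists, each point being 1 peak. The peaks at hsp-90 and hsp-1 sit within the cloud of other peaks, and the peak at hsp-3 lies at the far right, at rank 11085 in replicate 1.

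The replicate difference at hsp-3 was at the edge of what was seen among thresholded peaks found in both replicate lists. The log2 ratio of the signal of replicate 2 to that of replicate 1 was 2.70 at hsp-3, 0.92 at hsp-1 and 0.70 at hsp-90. Its median over the 172 nuclear thresholded peaks found in both lists was 0.53, with quartiles of 0.02 and 1.00, and 1 of the 172 had a higher ratio than hsp-3. No other peak of the 172 ranked as low in replicate 1, where the median rank was 119.5. The rest of the 176 nuclear thresholded peaks had no overlapping replicate 1 region and so no ratio. Their replicate 2 ranks were 51 to 97. The replicate summits were 85, 111 and 100 bp apart at hsp-90, hsp-1 and hsp-3, against a median of 48 bp and an upper quartile of 102 bp. These peaks are not independent replicates, and the ratios are given without a test.

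The mitochondrial genes had no thresholded region. hsp-60 (III, 1619742 to 1625803, plus strand) encodes the chaperonin of the mitochondrial matrix and had a pooled region at rank 3682 of 4849, with a signal of 8.20 and a q-value of 0.897. In replicate 2 that promoter ranked 475, with a signal of 10.1 and a q-value of 0.0306, 674 bp upstream. Replicate 1 had no region in the window, and its nearest, at rank 2645, was 1613 bp upstream and inside Y22D7AL.10.

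The hsp-60 promoter is shared too. Y22D7AL.10, annotated by RefSeq as the mitochondrial 10 kDa heat shock protein, the lid of the chaperonin chamber, is transcribed away from it. The 2 gene starts are 813 bp apart. The pooled summit was 180 bp and the replicate 2 summit 139 bp upstream of Y22D7AL.10, nearer to it than to hsp-60 in both lists. Of the 8 genes, the promoter region nearest to the upstream edge of the window was at hsp-6, 801 bp upstream, and the nearest beyond that edge was a replicate 1 region 1354 bp upstream of hsp-3 (rank 17379).

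hsp-6 (V, 4824124 to 4826760, minus strand), the mitochondrial HSP70 gene, had 1 promoter region, in replicate 2, at rank 5164 with a q-value of 0.548. Its summit was 801 bp upstream and lay in an intron of C37H5.5, a gene for a nucleolar complex protein homolog, 201 bp from its start. Replicate 2 also listed a region in a coding exon of hsp-6 (rank 4105, q-value 0.462) and one 644 bp downstream of the start (rank 19234), just outside the window. The nearest pooled summit was 25450 bp away.

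**Figure D3:**
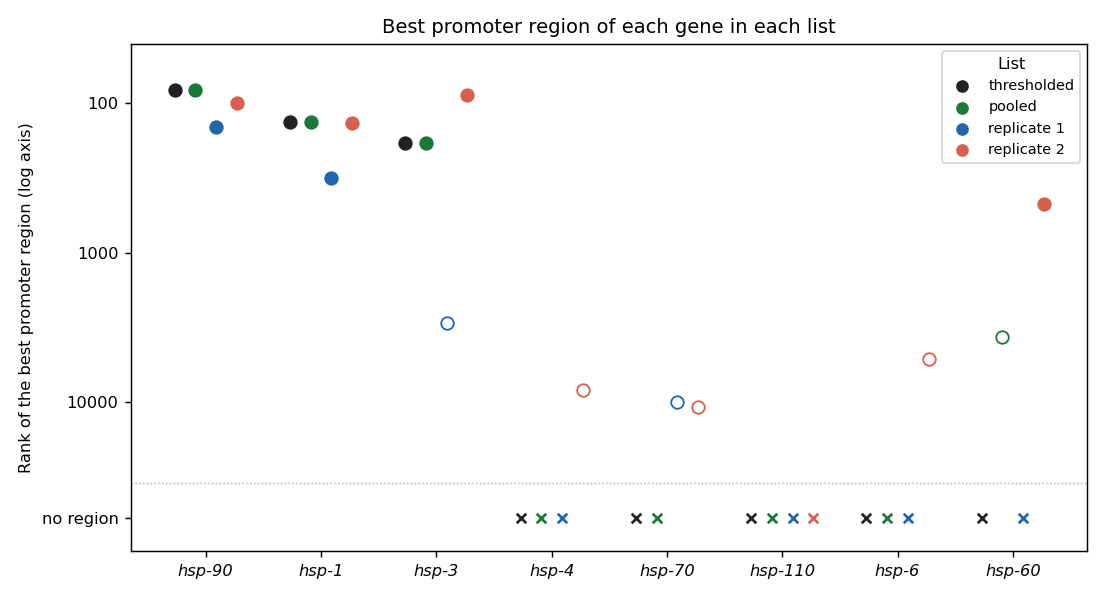
Rank of the best promoter region (vertical, log axis, best at the top) of each of the 8 genes in each of the 4 lists. Filled circles have a q-value of 0.05 or less, open circles a higher one, and crosses mark a list with no region in the window. hsp-90, hsp-1 and hsp-3 sit at ranks 82 to 185 in the pooled list, and the replicate 1 circle of hsp-3 at rank 2949 is the intronic region.

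Counted over the replicate lists, the genes divided unevenly. Replicate 1 had a promoter region at 4 of the 8 genes (hsp-90, hsp-1, hsp-3 and hsp-70), against 30.6% of all genes, and replicate 2 at 7, all but hsp-110, against 34.4% of all genes. Both replicates had one at 4 genes, against 14.8%, though not always at the same place, as at hsp-70. The pooled list and both replicate lists together had one at 3 genes, hsp-90, hsp-1 and hsp-3, against 7.48% of all genes. With the q-value at 0.05 or less, replicate 1 had 2 genes (3.75% of all genes), replicate 2 had 4 (1.71% of all genes) and both had 2, hsp-90 and hsp-1 (0.706% of all genes). Neither replicate had a region at 1 gene, hsp-110, against 49.8% of all genes. Among its 197 highest regions, replicate 1 had 1 gene, hsp-90, against 0.48% of all genes. Replicate 2 had 3 among its own 197, hsp-90, hsp-1 and hsp-3, against 0.515%. Genes with several starts have wider windows (3154 bp at hsp-3 against 1501 bp at hsp-1). The shares of all genes are not matched for window width.

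Set among all protein-coding genes by their best promoter region, the genes spread widely. In the pooled list 36 genes had a higher region than hsp-90, 67 than hsp-1, 97 than hsp-3 and 1745 than hsp-60. In replicate 1 the numbers were 74 for hsp-90, 166 for hsp-1, 1344 for hsp-3 and 3774 for hsp-70. In replicate 2 they were 35 for hsp-3, 44 for hsp-90, 67 for hsp-1 and 271 for hsp-60, then 2254 for hsp-6, 3335 for hsp-4 and 4147 for hsp-70. As shares of all genes, those with a higher region were 0.37% in replicate 1 and 0.22% in replicate 2 for hsp-90, and 0.831% and 0.335% for hsp-1. For hsp-3 they were 6.73% and 0.175%.

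**Figure D4:**
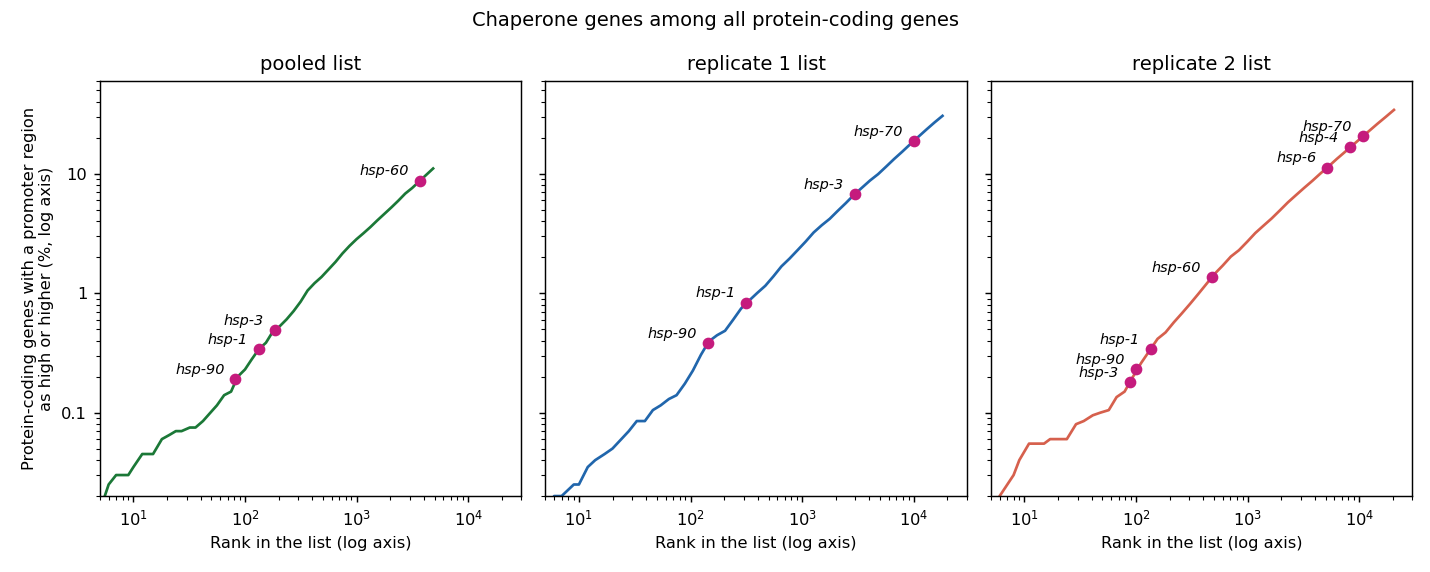
Share of the 19985 protein-coding genes with a promoter region as high as or higher than a given rank (vertical, %, log axis) against that rank (horizontal, log axis), in the pooled, replicate 1 and replicate 2 lists. Points are the chaperone genes with a region in that list. hsp-90 and hsp-1 lie low on all 3 curves, while hsp-3 lies low in the pooled and replicate 2 lists and well above hsp-1 in replicate 1.

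Repeated sequence was rare at these promoters. Of all words of 31 bp in the promoter windows, the share found once in the genome was 100% at hsp-90, hsp-3, hsp-70, hsp-110 and hsp-6. It was 99.7% at hsp-60, 97.3% at hsp-4 and 96.5% at hsp-1. The sources used here do not state the read length.

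The wider chaperone network was counted in the same way. Of 100 symbols in 9 lists of other chaperone and stress genes, 95 were protein-coding genes of the annotation. Of these, 0 had a thresholded promoter region, against 0.5% of all genes. With a share that small, a count of 0 says little about these genes. In the pooled list 21 of 95 had a promoter region (22.1%, against 11.1% of all genes), and 4 of 95 had one with a q-value of 0.05 or less (4.21%, against 0.996%). In both replicate lists, 21 of 95 had a region (22.1%, against 14.8%), and 2 had one at a q-value of 0.05 or less in both (2.11%, against 0.706%). The lists were chosen with earlier results of the series known.

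The 4 genes with such a pooled region include members of 2 cytosolic folding machines. cct-1 and cct-8 encode subunits of the CCT chaperonin, which folds actin and tubulin, and pfd-1 encodes a subunit of prefoldin, which hands such chains to CCT. By its best promoter region in each list, cct-8 ranked 337 in the pooled list, 1014 in replicate 1 and 394 in replicate 2. pfd-1 ranked 317, 558 and 388. Both had q-values under 0.05 in both replicates, and their summits lay 195 and 443 bp upstream of the starts.

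cct-1 ranked 285 in the pooled list and 89 in replicate 1, but 3155 in replicate 2, where its q-value was 0.386. dnj-12, a J-domain co-chaperone gene of HSP70, ranked 349 in the pooled list, 7165 in replicate 1 and 221 in replicate 2. All 4 summits also lay in the promoter window of another gene, whose start was nearer except at cct-8. The other genes were mig-5, a Dishevelled gene, at cct-1 (179 bp), Y55F3AR.2 at cct-8 (426 bp), F01G4.6, a mitochondrial phosphate carrier gene, at pfd-1 (166 bp), and mtx-1, a metaxin gene, at dnj-12 (233 bp). The other 6 CCT subunit genes had no pooled region.

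Small heat shock protein genes, which encode holdases, had 1 pooled region in 14, at sip-1 (rank 2108, q-value 0.663). For this and the following lists, the share of all genes with a pooled region was 11.1%. hsp-16.1, hsp-16.2, hsp-16.41 and hsp-16.48, the classical heat-induced genes, had no region in any list. The share of unique sequence was not measured at their promoters. Of 11 genes listed as HSP90 co-chaperones and relatives, 1 had a pooled region, enpl-1, the HSP90 of the endoplasmic reticulum, at rank 679 (q-value 0.181). Of 5 genes listed as other HSP70 family, 3 had one, F44E5.4 and F44E5.5 through the same region at rank 1695 (q-value 0.564) and stc-1 at rank 2688. F11F1.1 of that list is annotated by RefSeq as a DUF148-domain protein.

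Of 6 endoplasmic reticulum folding genes, 2 had a pooled region, pdi-3 at rank 1489 and crt-1 (calreticulin) at rank 2692, neither with a q-value of 0.05 or less. Of 29 J-domain genes 6 had one, and only that of dnj-12 had a q-value of 0.05 or less. Of 3 mitochondrial folding genes 1 had one, Y22D7AL.10 through the region shared with hsp-60. Of 13 stress-response regulators, 4 had one, and the highest was pek-1, a kinase of the unfolded protein response, at rank 763 (q-value 0.209). hsf-1, the heat shock factor, and daf-16 had no pooled region, and skn-1 had one at rank 4687 (q-value 0.956). Beside these counts, 11.1% of all genes had a pooled region, and the pooled list contains background.

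The 3 genes nearest in rank to each of the 3 chaperone genes are named next, and such genes exist for any gene by construction. Likeness was the distance between log10 ranks in the pooled, replicate 1 and replicate 2 lists, over the 1495 protein-coding genes with a region in all 3. The nearest to hsp-90 were C47E8.4, through the same regions, Y56A3A.33 (ranks 79, 121 and 78) and D1054.18 (94, 106 and 108). The nearest to hsp-1 were zip-2 (146, 288 and 129), a transcription factor gene, aagr-2 and lron-7 (115, 397 and 147). The nearest to hsp-3, taking the intronic region as its best in replicate 1, were eelo-2 (204, 2934 and 96), the heme transporter gene hrg-1 (170, 2791 and 121) and fbxc-29 (131, 2134 and 98). The replicate 1 region that overlaps the thresholded peak of hsp-3 ranked 11085 and was not used for this distance.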

How the data were processed

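UNC-62 ChIP-seq was analysed in 2 replicates of 1 group, from the deposited ce11 region lists. Per the file headers of the read-me texts, the authors called regions on each replicate with a control and on the pooled alignments, and derived the thresholded list from these. The sources used here name no aligner, caller, version or IDR threshold. Per the labels, both samples are biological replicates.

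The deposited signal value is the authors' own, against a control, and was used only to rank within a list and, as a log2 ratio, between replicates. The authors' −log10 q-values were turned into q-values. No read counts were used, so the depth is unknown. The ce10 lists were not used here.

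Starts came from WBcel235 (Ensembl release 115), and no region lay past a chromosome end of that assembly. Sequence and product names came from RefSeq on the same assembly. Scripts ran in Python 3.11.15 with numpy 2.4.6. Window assignment was checked on simulated regions against the same window rule, which covers the lookup and not the choice of gene. No test was run, since there is 1 group. The genes, lists and words were chosen with earlier results of these data known. Genes named are the 8 members, genes sharing their summits, listed genes with a thresholded region or a pooled q-value of 0.05 or less, and the 3 genes nearest in rank to each member with a thresholded region; other listed genes were named after their values were seen. Of 100 listed symbols, 95 matched.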

Additional observations from a re-analysis of the deposited data

How the results depend on the processing

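The count of 3 genes with a thresholded region was 2 to 3 under the other windows, overlaps, starts and assignments, and under the q-value limit. The share of all genes under these settings ran from 0.365% with the narrowest window to 0.746% with the widest. hsp-90 was the gene lost with the outermost start alone and with the nearest protein-coding start. Only 1 gene, hsp-90, was left in the upper part of the list by signal, from its median of 26.2 upward, by construction, since hsp-1 (23.3) and hsp-3 (20.96) lie below it. With the 197 highest regions of a single replicate in place of the thresholded list, the count was 1 without replicate 2 and 3 without replicate 1. The pooled count of 4 was 3 to 4 throughout, but the genes changed. hsp-60 was lost with the window of 500 bp upstream to 200 bp downstream, with the nearest protein-coding start and with the q-value limit. hsp-90 was lost with the outermost start alone. With the nearest protein-coding start, hsp-90 stayed only through its region at rank 4319 (q-value 0.945). The share of all genes ran from 0.996% with the q-value limit to 15.3% with the widest window. The count of 4 with a region in both replicates was 2 with a window of 500 bp upstream to 200 bp downstream, against 6.72% of all genes. With a q-value of 0.05 or less, where fewer regions are counted by construction, it was 2, against 0.706% of all genes. It was 3 to 5 otherwise, and 5 only with the window of 2000 bp upstream to 500 bp downstream, against 24.2%. Pooled ranks of hsp-90, hsp-1 and hsp-3 were 64, 113 and 164 among nuclear regions alone. By q-value all 3 tied at a mean rank of 138.5. Ranking by column 8 of the lists was not run, as it holds one value throughout. No paired analysis was possible because there is 1 group. Unknown depth and 2 replicates limit the statements: a region missing from a list is not shown to be absent.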
